A study of Mus musculus with 14 samples.

Results

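The enzymes of glycolysis, their glucose and lactate transporters and a group of genes known as targets of the hypoxia response were followed in cultured mouse BFU-E. The gene list was drawn up by name and holds 36 genes, of 23647 symbols used in one set of libraries and 54632 in the other. BFU-E (burst-forming unit-erythroid) cells are early progenitors of red blood cells, here isolated from C57BL/6 fetal liver and grown in StemSpan SFEM II medium. RNA was sequenced in 12 libraries, 3 in each of 4 groups. In the OB set, cells received compound OB at 100 µM or the solvent DMSO, and in the PD set compound PD at 3 nM or a separate DMSO control. The labels give neither the time of exposure nor the gates used to isolate the cells, and do not say that replicates came from separate cultures or animals. The p-values therefore measure only the spread between these samples, which may be technical. Values are FPKM, a count of read fragments corrected for the length of the gene and the size of the library, so levels of different genes can be set side by side within a set. The 2 chromatin samples of the series were not analysed here.

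Glycolysis splits glucose into pyruvate in a fixed order of steps, from glucose entry and hexokinase to pyruvate kinase. Lactate dehydrogenase then turns pyruvate into lactate, which leaves the cell by monocarboxylate transporters, or the pyruvate dehydrogenase complex passes it on to the mitochondria. Several steps have more than one enzyme form encoded by separate genes, and erythroid cells are known for the pyruvate kinase form Pklr and for Bpgm, which makes the phosphate compound that lowers the oxygen affinity of haemoglobin. At low oxygen the hypoxia-inducible factors (HIF) are stabilised and bind DNA at a short core motif near many glycolytic genes and near Bnip3, Vegfa, Ankrd37 and others.

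That core was searched for as ACGTG and GCGTG on both strands, so that CACGT and CACGC count as matches, and CACGTG counts once on each strand. RefSeq promoter windows of GRCm38.p6, the 250 bases before each annotated start, were found for 35 of the 36 genes (all but Slc2a3). Either motif was present in 71.7% of their 53 windows, against 38.6% of all 32851 windows, and ACGTG alone in 39.6% against 16.6%. Windows of the same gene can overlap, and counted by gene either motif was present in 85.7% against 41.5%. A gene counted if any of its windows matched. The 35 genes had more windows each than all 27025 genes with windows, which was not corrected for. Both motifs hold the letters CG, and the background was not matched for them. A match describes these letters and is not a measured binding site. The sequences are shown, 5′ to 3′ on the strand of the gene with matches in capitals, because their genes carry the comparisons below: Pgk1 (chrX:106186850-106187099, plus strand) and Bnip3 (chr7:138909507-138909756, minus strand) are hypoxia targets that varied widely between the OB set libraries, Slc2a1 (chr4:119108495-119108744, plus strand) was lower with compound PD, and Pkm (chr9:59656977-59657226, plus strand, the window before the downstream of its annotated starts) stood on opposite sides of DMSO in the 2 sets. Ldha is shown by 30 bases (chr7:46845754-46845783, plus strand) of a window with 5 matches to ACGTG.
Pgk1: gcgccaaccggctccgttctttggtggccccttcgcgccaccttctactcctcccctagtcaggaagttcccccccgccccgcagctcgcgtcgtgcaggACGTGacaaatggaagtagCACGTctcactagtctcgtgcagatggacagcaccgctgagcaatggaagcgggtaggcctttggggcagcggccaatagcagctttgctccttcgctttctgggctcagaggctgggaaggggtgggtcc
Bnip3: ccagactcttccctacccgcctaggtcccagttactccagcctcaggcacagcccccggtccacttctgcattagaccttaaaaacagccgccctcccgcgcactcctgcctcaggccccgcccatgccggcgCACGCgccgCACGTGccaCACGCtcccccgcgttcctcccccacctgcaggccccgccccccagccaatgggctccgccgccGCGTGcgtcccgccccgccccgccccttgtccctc
Slc2a1: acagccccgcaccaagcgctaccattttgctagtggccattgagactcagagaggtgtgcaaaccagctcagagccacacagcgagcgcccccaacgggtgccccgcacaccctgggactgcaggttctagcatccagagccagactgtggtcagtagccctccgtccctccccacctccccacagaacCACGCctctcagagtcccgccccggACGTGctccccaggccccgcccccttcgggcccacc
Pkm: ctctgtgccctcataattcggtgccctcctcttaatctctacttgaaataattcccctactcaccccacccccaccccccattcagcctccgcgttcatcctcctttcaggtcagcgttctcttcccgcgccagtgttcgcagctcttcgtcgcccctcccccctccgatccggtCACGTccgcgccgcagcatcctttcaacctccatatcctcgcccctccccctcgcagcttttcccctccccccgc
Ldha: taCACGTGggttcccgCACGTccgctgggc
Pgk1 had 2 matches to ACGTG, Bnip3 had 2 to ACGTG and 3 to GCGTG, and Slc2a1 had 1 of each. Pkm had 1 in the window shown and 0 in the window before its other start. No match was found for Bpgm, Eno2, Gpi1, Pklr or Tpi1 in these windows.

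Some libraries stood apart from the rest. In the OB set both replicate 1 libraries differed from the other 4: they lay below all 4 for 17 of the 33 genes tested here, against 29% of all genes tested, and above all 4 for 3 (Pfkm, Pfkfb4 and Bpgm), against 30.1% of all genes. OB set DMSO replicate 2 stood apart in structural RNAs, with Rn45s (precursor of ribosomal RNA) at 12380 FPKM against 175 to 955 in the other 5 libraries, Rmrp at 2069 against 11.3 to 51.5 and Rpph1 at 1285 against 11.0 to 44.8. In the PD set DMSO replicate 1 was low for 30 of the 36 genes relative to each gene's mean over its set, with a median deviation of -0.39 on the log2 scale against -0.24 for all genes. Its erythroid marker sum was 85222 FPKM, against 29385 to 49055 in the other 5 libraries. In bulk RNA, fewer cells of a type and less RNA per cell cannot be told apart. Erythroid markers such as Gata1, Klf1 and Epor were expressed in both sets, while hepatocyte markers summed to at most 6.44 FPKM and lymphoid markers to at most 1.03. Neutrophil and granulocyte precursor markers summed to 145 to 580 FPKM in the OB set and to 11654 to 37511 in the PD set.

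In the OB set DMSO controls, Gapdh was the highest of the 36 genes at 3062 ± 519 FPKM (SD, n = 3). It was followed by Ldha at 1235 ± 315, Aldoa at 1101 ± 277 and Eno1 at 1054 ± 281 FPKM, which did not differ beyond their spread. Gapdh also led in the PD set DMSO controls, at 1404 ± 251 FPKM, ahead of Aldoa at 484 ± 88.6 and Ldha at 441 ± 105 FPKM. At the low end, Eno2, Hk3 and Ldhb stayed under 1 FPKM on average in the OB set, and Ankrd37 had the lowest mean of the PD set controls, at 0.933 ± 0.756 FPKM. The reads of Gapdh, Ldha, Aldoa, Eno1 and Pgk1 can be shared with near-identical copies, which makes their levels uncertain.

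Hexokinase phosphorylates glucose on entry, and Hk1 was its main form in every library. Hk1 of the OB set was at 176, 99.5 and 112 FPKM with DMSO and 233, 207 and 176 with compound OB, against 4.75, 10.9 and 12.8 and then 5.90, 13.4 and 12.2 FPKM for Hk2. The Hk1 values were higher with the compound without overlap, whereas those of Hk2 overlapped and were lowest in both replicate 1 libraries. The log2 ratio of Hk1 to Hk2 differed by 0.55 (exact permutation test, p = 0.5, adjusted p = 0.7 over 6 ratios). In the PD set Hk1 was at 146, 183 and 192 FPKM with DMSO and 161, 168 and 159 with compound PD, while Hk2 went from 2.58, 6.51 and 5.59 to 7.64, 8.39 and 7.03 FPKM. Hk2 was thus higher in each compound PD library than in each control, and the log2 ratio differed by -0.71 (exact permutation test, p = 0.1, adjusted p = 0.2). With 3 against 3 libraries 0.1 is the smallest two-sided p that this test can give.

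Pyruvate kinase makes pyruvate and ATP in the last step. The form Pkm (chr9:59656576-59679372) was at 410, 463 and 638 FPKM with DMSO and 282, 245 and 323 with compound OB, with every compound value below every control. Pklr (chr3:89136122-89146815), the form typical of red cells and liver, was at 250, 205 and 221 FPKM with DMSO and 240, 274 and 261 with compound OB. Its groups overlapped. The ratio of Pkm to Pklr was thus 1.64, 2.26 and 2.88 in the controls and 1.17, 0.894 and 1.24 with the compound, and Pkm made up 68.6% ± 6.11 and 52.2% ± 4.37 of the summed FPKM of both genes (SD, n = 3). In the PD set the order was the opposite: the ratio was 1.95, 1.77 and 1.68 in the controls and 5.05, 2.39 and 2.64 with compound PD, and the share of Pkm was 64.2% ± 1.69 against 75.5% ± 6.97. Pkm itself was at 200, 217 and 229 FPKM with DMSO and 452, 320 and 319 with compound PD, and Pklr at 103, 123 and 136 against 89.4, 134 and 121. Neither ratio could pass the test at this size. The log2 ratio differed by -1.01 in the OB set and by 0.82 in the PD set (exact permutation test, p = 0.1 and adjusted p = 0.2 in each).

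Lactate dehydrogenase was almost entirely Ldha. Ldha was at 924, 1227 and 1554 FPKM with DMSO and 845, 878 and 1032 with compound OB, and Ldhb, the form that prevails in heart, ranged from 0.25 to 0.98 FPKM in the same libraries. In the PD set Ldha was at 320, 491 and 511 FPKM with DMSO and 553, 470 and 495 with compound PD, and Ldhb at 6.29, 15.1 and 13.2 against 17.2, 14.0 and 12.1. The lowest share of Ldha in the pair was 97.0%, over the 12 libraries. The log2 ratio differed by -0.17 in the OB set (exact permutation test, p = 0.7) and by -0.14 in the PD set (p = 0.6), with groups that overlapped in both.

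**Figure D1:**
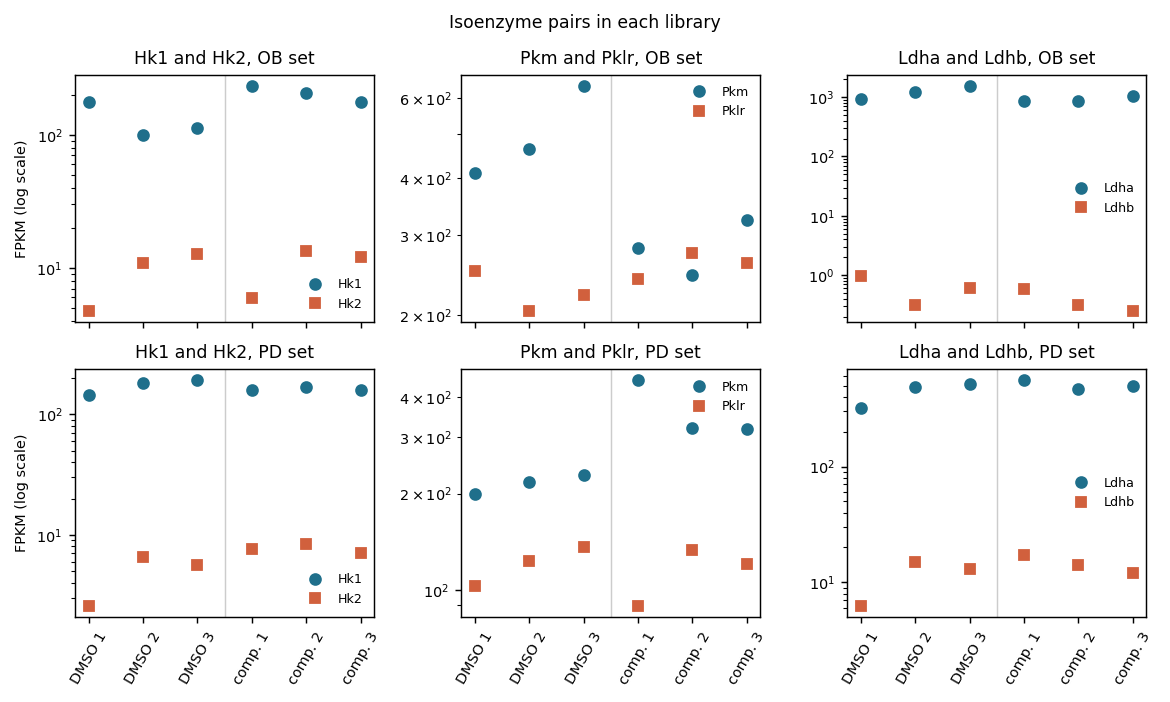
FPKM (log axis) of both genes of each isoenzyme pair in each library, OB set above and PD set below, with DMSO to the left of the grey line and compound to the right. In the OB set the Pkm points come down to the Pklr points with the compound, and in the PD set the gap between them widens.

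The first comparison asked which of these genes differed between compound OB and its DMSO control. The genes were mostly lower with compound OB: 26 of the 33 with a mean of at least 1 FPKM were lower and 7 higher, against 41.3% lower and 58.7% higher of the 10104 genes tested, and the median log2 difference was -0.16 against 0.03 for all genes. None of the 33 passed the adjusted threshold of 0.05 in limma, with all genes tested giving 0% in each direction. The smallest adjusted p was 0.778, for Pkm. At an unadjusted p under 0.05, limma gave 1 higher (Hk1, against 2.45% of all genes) and 2 lower (Aldoc and Pkm, against 1.23%). The groups did not overlap for 1 higher gene (Hk1, against 5.32% of all genes) and 3 lower ones (Slc2a3, Aldoc and Pkm, against 3.4%). The counts moved with single controls, and of the single libraries left out only DMSO replicate 3 removed the lean. Without it 17 genes were higher and 16 lower, with a median of 0.01. Without compound OB replicate 1, 2 or 3, the counts were 11, 6 and 7 higher and 22, 27 and 26 lower. Without DMSO replicate 1, 5 were higher and 28 lower with a median of -0.27. Without DMSO replicate 2, 10 were higher and 23 lower with a median of -0.14.

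Same-numbered libraries of the OB set deviated together, most clearly replicate 1, so each compound library was also set against the control of its number. The pairs of replicates 2 and 3 are uncertain. In its deviations DMSO replicate 2 correlated at 0.434 with compound replicate 2 and at 0.413 with compound replicate 3. In all 3 pairs 15 of the 33 genes (45.5%) were lower with compound OB, against 16.7% of all genes, and 5 (15.2%) were higher, against 23.2%. The 15 were Slc2a3, Gpi1, Pfkl, Pfkfb4, Aldoa, Aldoc, Tpi1, Gapdh, Pgk1, Eno1, Pkm, Ldha, Bnip3, Higd1a and Ankrd37. With the replicate number as a block, limma gave 11 lower and 3 higher at an unadjusted p under 0.05, against 5.07% and 9.84% of all genes, and none passed the adjusted threshold, which 0.0396% of all genes passed as higher and 0.0297% as lower. Pkm had the smallest adjusted p in that fit, 0.0717, followed by Hk1 at 0.137. With median-ratio scaling and the block Hk1 passed as higher and Pkm as lower, against 0.624% and 0.416% of all genes. Hk1 also passed without DMSO replicate 1, against 0.129% of all genes called higher, and with the block but without replicate 2, against 0.584%.

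At glucose entry, the transporter Slc2a1 was at 172, 166 and 194 FPKM with DMSO and 209, 191 and 198 with compound OB. Slc2a3, a second glucose transporter, was at 55.8, 52.2 and 61.2 FPKM against 45.9, 48.9 and 50.1. The log2 differences were 0.17 (SE 0.09) and -0.22 (SE 0.09). That of Hk1 was 0.70 (SE 0.22; limma, adjusted p = 1.00 without the block), and the highest value of its controls, in replicate 1, was level with the lowest compound value. Gpi1, the isomerase that follows hexokinase, was at 217, 212 and 272 FPKM with DMSO and 212, 194 and 218 with compound OB. Phosphofructokinase sets the pace of the pathway, and its most abundant form in these controls, Pfkl, was at 44.8, 58.3 and 75.8 FPKM against 43.3, 53.6 and 57.3. The groups of both genes overlapped. Pfkl and Pfkp had log2 differences of -0.19 (SE 0.20) and -0.15 (SE 0.30), whereas that of the muscle form Pfkm was 0.21 (SE 0.18). The regulators Pfkfb1, Pfkfb3 and Pfkfb4, which make or remove its activator, were between 1.86 and 3.78 FPKM in every OB set library. The highest of them on average, Pfkfb3, was at 3.26, 3.33 and 3.47 FPKM with DMSO and 3.28, 3.04 and 3.04 with compound OB.

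In the lower part of the pathway the controls were widely spread. Aldoa, which splits the phosphorylated sugar, was at 830, 1089 and 1384 FPKM with DMSO and 774, 777 and 945 with compound OB. Its log2 difference was -0.38 (SE 0.19, or 0.09 with the block). Aldoc, the brain form of the same enzyme, was at 10.3, 11.5 and 14.3 FPKM against 8.65, 5.25 and 8.04, a log2 difference of -0.66 (SE 0.20). Its groups did not overlap. Tpi1, which interconverts the sugars released by aldolase, was at 378, 584 and 761 FPKM with DMSO and 350, 427 and 525 with compound OB. Gapdh, which oxidises one of them, was at 2684, 2848 and 3654 FPKM against 2642, 2782 and 3236. In both genes the groups overlapped and the replicate 1 libraries were lowest. Pgk1 (chrX:106187100-106203699), which makes the first ATP of the payoff phase, was at 256, 546 and 765 FPKM with DMSO and 255, 319 and 432 with compound OB. Within pairs its log2 difference was -0.01, -0.78 and -0.82, so that the replicate 1 pair showed almost none. Pgam1, the phosphoglycerate mutase, was at 184, 225 and 266 FPKM with DMSO and 201, 207 and 214 with compound OB, the compound values lying within the range of the controls. Eno1, the enolase, was at 781, 1040 and 1342 FPKM against 679, 743 and 866, with -0.20, -0.49 and -0.63 within pairs.

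Pkm had log2 differences of -0.54, -0.92 and -0.98 within pairs, and its log2 difference between the groups was -0.81 (SE 0.18, or 0.09 with the block). It lay between -0.95 and -0.63 whichever single library was left out. Ldha had -0.13, -0.48 and -0.59 within pairs. Bpgm was at 157, 76.7 and 94.6 FPKM with DMSO and 194, 94.2 and 103 with compound OB, higher in each pair but with the replicate 1 libraries far above the rest. The lactate exporter Slc16a3 was at 35.8, 75.7 and 101.7 FPKM against 41.7, 55.4 and 63.0, higher in the first pair and lower in the others. Slc16a1, the other exporter, ranged from 44.7 to 62.0 FPKM over the 6 libraries.

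Among the hypoxia targets outside the pathway, Bnip3 (chr7:138890836-138909506), a mitochondrial protein that promotes mitophagy, was at 33.0, 102 and 128 FPKM with DMSO and 24.7, 34.4 and 60.9 with compound OB. It was lower in each pair, by log2 differences of -0.40, -1.55 and -1.06, while the groups overlapped through the low control of replicate 1. Ankrd37, an ankyrin repeat protein, was at 3.14, 14.6 and 16.7 FPKM against 2.27, 6.11 and 8.72 and showed the same order of libraries. The log2 differences were -1.0 for Bnip3 (SE 0.55, or 0.21 with the block) and -0.78 for Ankrd37 (SE 0.64, or 0.16 with the block). Higd1a, P4ha1, P4ha2 and Vegfa had differences of -0.31 to -0.03, with SEs of 0.23 to 0.43. Pdk1, the kinase that turns off pyruvate dehydrogenase, was at 12.1, 35.4 and 41.6 FPKM with DMSO and 15.6, 28.0 and 32.4 with compound OB. Pdha1, a subunit of that enzyme complex, was at 85.0, 118 and 124 FPKM against 90.1, 112 and 122, so the groups of both overlapped.

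**Figure D2:**
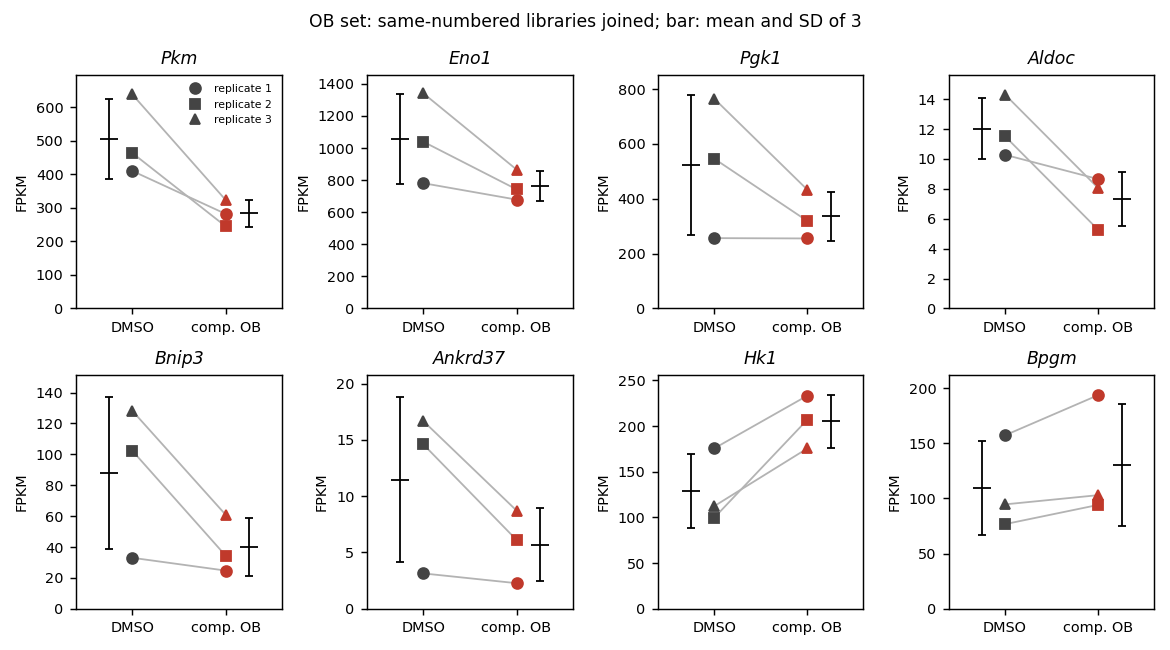
FPKM (linear axis from 0) of 8 genes in the 6 OB set libraries, with same-numbered libraries joined by a grey line and the mean and SD of each group (n = 3) beside the points. Replicate 1 (circles) starts low for Pgk1, Bnip3 and Ankrd37, and its lines are the flattest there; the lines of Pkm all go down.

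A fit without both replicate 1 libraries of the OB set was chosen after the data were seen. It gave 13 of the 33 genes as lower (Aldoa, Aldoc, Ankrd37, Eno1, Higd1a, Ldha, P4ha1, Pdk1, Pfkp, Pgk1, Pkm, Slc16a3 and Tpi1), against 2.45% of all genes. It gave 3 as higher (Hk1, Pfkm and Pklr), against 15.3% (limma, adjusted p). With the block as well, 13 were lower and 2 higher, against 1.54% and 9.19% of all genes. Such fits have 2 libraries per group, so their spread was borrowed largely from other genes. In both replicate 1 libraries neutrophil and granulocyte precursor markers summed to 580 and 485 FPKM, against 145 to 180 in the other 4. Megakaryocyte markers summed to 1356 and 967 FPKM there, against 477 to 617. The part of these cells in the low values of replicate 1 was not tested.

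The second comparison set compound PD against its own DMSO control. Here 23 of the 36 genes were higher with the compound and 13 lower, against 59.1% and 40.9% of the 11905 genes tested, and the median log2 difference was 0.23 against 0.06 for all genes. With median-ratio scaling the counts were 21 and 15. No gene of the 36 passed the adjusted threshold in limma, which 0.0168% of all genes passed in each direction. The smallest adjusted p was 0.0973, for Slc16a3. At an unadjusted p under 0.05, limma gave 5 higher (Hk3, Pfkfb3, Pfkfb4, Pkm and Slc16a3), against 9.05% of all genes, and 2 lower (Slc2a1 and Aldoc), against 1.61%. The groups did not overlap for 8 higher genes (22.2%), against 13.1% of all genes, and for the same 2 lower ones (5.56%), against 3.71%. Without DMSO replicate 1 the median was 0.05 against -0.02 for all genes, with 21 higher and 15 lower. The direction of the counts turned without both replicate 1 libraries, where 15 were higher and 21 lower and the median was -0.047 against -0.046 for all genes, with the replicate number as a block or without it.

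Markers of some other blood lineages were also higher with compound PD. Neutrophil and granulocyte precursor markers summed to 11654 to 17619 FPKM with DMSO and 29771 to 37511 with compound PD. Of these, 7 of 10 genes were higher without overlap, beside 13.1% of all genes. S100a8 and S100a9 held most of that sum, with means of 10414 and 15353 FPKM with the compound, while Mpo, Ctsg and Ltf overlapped. Mpo was at 428, 556 and 560 FPKM with DMSO and 933, 463 and 422 with the compound. Megakaryocyte markers summed to 2303 to 4551 against 4221 to 7508 FPKM, with 5 of 7 genes higher without overlap. Macrophage markers summed to 12.1 to 23.0 against 23.7 to 30.5 FPKM, with 1 of 8 genes higher without overlap. Mast cell and basophil markers summed to 929 to 1951 and 1578 to 3340 FPKM, which overlapped, with 1 of 8 genes higher without overlap and 0 lower. The basophil protease Prss34 averaged 21.5 FPKM with DMSO and 2.64 with compound PD, but its groups overlapped. Erythroid markers summed to 39579 to 85222 against 29385 to 49055 FPKM, with 1 of 10 genes higher (Kit) and 2 lower (Klf1 and Tfrc) without overlap. The part of such cells in the differences below was not tested.

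Slc16a3 (chr11:120948484-120959000), which carries lactate out of the cell, was at 11.1, 10.7 and 12.0 FPKM with DMSO and 24.2, 24.0 and 20.2 with compound PD. The groups were far apart next to their spread, with a ratio of means of 2.03 and a log2 difference of 0.95 (SE 0.17; limma, adjusted p = 0.0973). It passed the threshold without DMSO replicate 1 (adjusted p = 0.0371, against 1.07% of all genes called higher). Slc16a1, the other lactate carrier, was at 25.1, 36.5 and 40.0 FPKM against 28.7, 30.6 and 30.8, so Slc16a3 made up 25.5% ± 4.55 of the summed FPKM of both in the controls and 43.1% ± 3.19 with the compound (SD, n = 3). Pkm had a log2 difference of 0.73 (SE 0.17; limma, adjusted p = 0.168), between 0.57 and 0.82 with any single library left out.

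At glucose entry, the glucose transporter Slc2a1 (chr4:119108745-119137330) was at 512, 191 and 202 FPKM with DMSO and 113, 157 and 143 with compound PD. All compound values lay below all controls, and DMSO replicate 1 stood far above the others. Its log2 difference was -0.98 (SE 0.35; limma, adjusted p = 0.333), and -0.52 without DMSO replicate 1. The erythroid marker sum was likewise highest in DMSO replicate 1 (85222 FPKM) and lowest in compound PD replicate 1 (29385 FPKM), and Klf1 and Tfrc were lower with the compound without overlap; their part in this difference was not tested. Slc2a1 passed as lower only with the replicate number as a block and replicate 2 or 3 left out, against 0.235% and 0.244% of all genes. Slc2a3 was at 179, 91.6 and 94.9 FPKM against 170, 117 and 107, with both replicate 1 libraries highest, and its share of both transporters was 30.1% ± 3.61 in the controls and 48.5% ± 10.1 with the compound. Hk3, a hexokinase found mainly in white blood cells, was at 8.59, 17.9 and 22.4 FPKM with DMSO and 27.6, 25.5 and 27.3 with compound PD. Its share of hexokinase was 8.10% ± 2.42 against 13.6% ± 0.877, and its log2 difference 0.78 (SE 0.30), or 0.40 without DMSO replicate 1.

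Of the phosphofructokinase regulators, Pfkfb1, Pfkfb3 and Pfkfb4 were among the genes higher without overlap (13.1% of all genes), whereas the family member Pfkfb2, which is not among the 36 genes, overlapped. Pfkfb2 was at 15.8, 13.6 and 12.7 FPKM with DMSO and 15.4, 12.8 and 8.73 with compound PD. Pfkfb3 was at 6.76, 7.11 and 6.83 FPKM with DMSO and 10.6, 11.2 and 8.58 with compound PD. Pfkfb4 was at 5.95, 11.3 and 11.1 FPKM against 12.9, 16.3 and 13.8, and Pfkfb1 at 3.73, 3.20 and 1.84 against 4.03, 4.08 and 5.57. The log2 differences were 0.48 (SE 0.19) for Pfkfb3, 0.59 (SE 0.25) for Pfkfb4 and 0.52 (SE 0.27) for Pfkfb1. Pfkm, the most abundant phosphofructokinase of the PD set controls, was at 30.2, 48.5 and 54.7 FPKM against 32.9, 39.8 and 40.4. The 3 phosphofructokinase genes themselves overlapped between the groups, with log2 differences of 0.31 for Pfkl, 0.04 for Pfkp and -0.20 for Pfkm.

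The middle steps leaned to higher values but their groups overlapped: DMSO replicate 1 was low, while the other 2 controls lay near the compound values. Gpi1 was at 152, 276 and 287 FPKM with DMSO and 352, 322 and 266 with compound PD. Eno1 was at 155, 265 and 245 FPKM against 289, 274 and 254. Aldoa was at 382, 524 and 545 FPKM against 635, 560 and 505. In each of these, DMSO replicate 1 was the lowest of the 6 libraries. Tpi1 was at 117, 185 and 195 FPKM with DMSO and 206, 189 and 179 with compound PD, and Gapdh at 1116, 1526 and 1571 against 1634, 1506 and 1400. Pgk1 was at 125, 196 and 195 FPKM against 244, 182 and 197. Aldoa, Tpi1, Gapdh and Pgk1 had log2 differences of 0.12 to 0.29, with SEs of 0.15 to 0.21. Pgam1 was higher without overlap, at 90.1, 132 and 140 FPKM against 183, 154 and 148. Aldoc ran the other way, at 7.10, 5.26 and 7.18 FPKM with DMSO and 3.39, 4.68 and 3.56 with compound PD, a log2 difference of -0.62 (SE 0.23; limma, adjusted p = 0.357). It was the 1 gene of the list that lay below its controls without overlap in both sets.

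Bpgm was at 472, 197 and 177 FPKM with DMSO and 141, 308 and 324 with compound PD, so its replicate 1 libraries went against the others, with the highest and the lowest value of the set, as in the erythroid marker sum. Its log2 difference was -0.07 (SE 0.42) with all libraries, and 0.75 without both replicate 1 libraries (limma, adjusted p = 0.0155), a fit chosen after the data were seen in which Pkm passed as well, against 1.76% of all genes called higher. With the block added Bpgm alone passed (adjusted p = 0.0422), against 0.924%. Among the hypoxia targets, Bnip3 was at 103, 58.8 and 53.7 FPKM against 58.2, 75.6 and 66.1, a log2 difference of -0.05 (SE 0.25). P4ha2, a collagen prolyl hydroxylase, was at 9.91 FPKM in compound PD replicate 1 and at 2.37 to 2.85 in the other 5 libraries. Vegfa, Higd1a, P4ha1 and Ankrd37 had log2 differences of -0.20 to 0.26, with groups that overlapped, and so did Pdk1, Pdk3 and Pdha1 with -0.24 to -0.08. Pdha1 was at 56.7, 76.8 and 85.0 FPKM with DMSO and 69.1, 65.6 and 69.4 with compound PD.

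**Figure D3:**
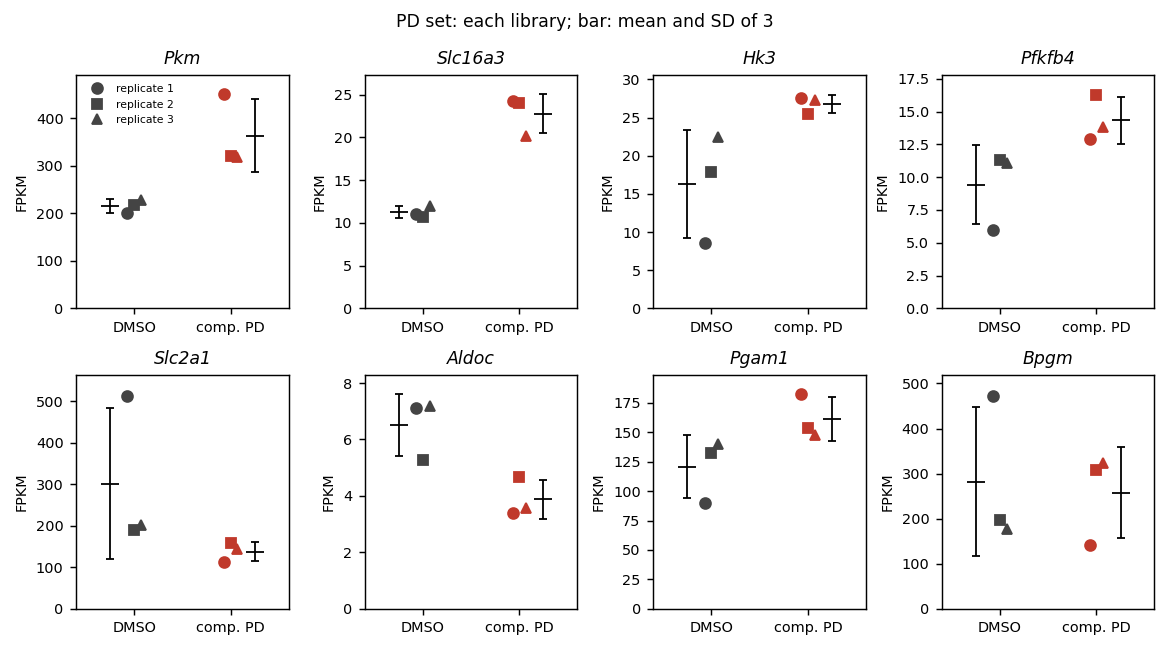
FPKM (linear axis from 0) of 8 genes in the 6 PD set libraries, with the mean and SD of each group (n = 3) beside the points. Pkm, Slc16a3, Hk3, Pfkfb4 and Pgam1 are higher in each compound library than in each control, Slc2a1 and Aldoc lower, and DMSO replicate 1 (dark circle) is far above the other controls for Slc2a1 and Bpgm.

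The difference in effect between the compounds was then tested over the 12 libraries together, where compound, dose and set cannot be told apart. The PD difference was above the OB difference for 27 of the 36 genes, with a median of 0.49 on the log2 scale against 0.02 for all genes. Among the 36 are Eno2, Hk3 and Ldhb, which were not tested in the OB set because they averaged under 1 FPKM there. Their values of -0.11, 0.75 and 0.59 enter the count and the median, which were not computed without them. Single controls moved the median. It was 0.29 with 24 genes above without OB set DMSO replicate 3, and 0.24 with 26 above without PD set DMSO replicate 1. Without OB set DMSO replicate 1 it was 0.55 with 29 above. No gene of the list passed the adjusted threshold in limma, nor did any of the 10353 genes tested (0%). At an unadjusted p under 0.05, 7 genes were higher, against 5.71% of all genes, and 2 lower (Slc2a1 and Hk1), against 1.68%. Pkm had the largest, 1.55 (SE 0.25; limma, adjusted p = 0.0992), and was the only gene of the list that was lower without overlap in one set and higher without overlap in the other. Slc2a1 had -1.16 (SE 0.40; adjusted p = 0.492) and Hk1 -0.78 (SE 0.27; adjusted p = 0.487).

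**Figure D4:**
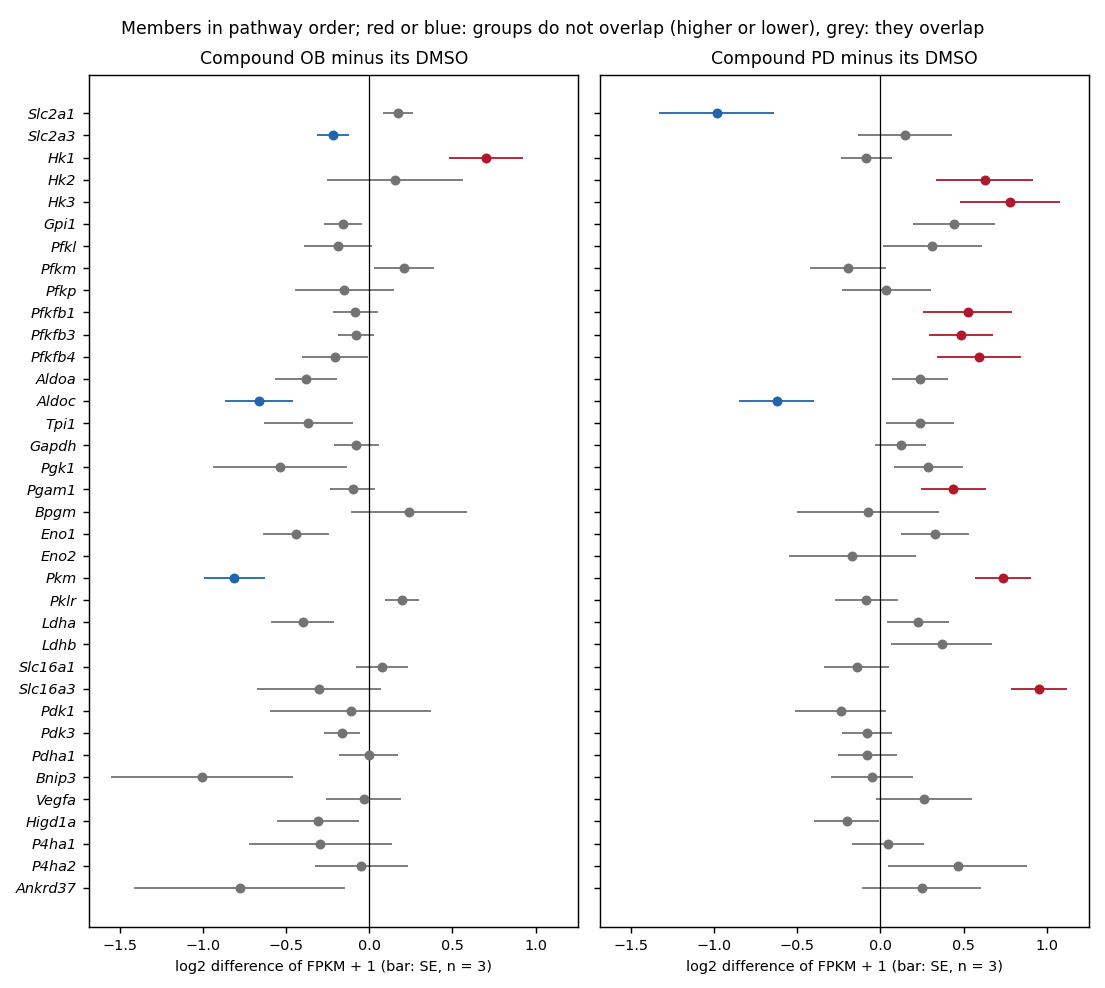
Log2 difference of FPKM + 1 between compound and DMSO with its SE (n = 3 per group) for each gene tested, in pathway order, OB set on the left and PD set on the right. Red and blue points have groups that do not overlap; Pkm is blue for compound OB (-0.81) and red for compound PD (0.73), and Aldoc is blue in both.

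Neighbouring gene groups gave no calls either, with or without the block. Of all genes tested, 58.7% were higher with compound OB and 59.1% with compound PD, shares near several of the counts below. Of the other sugar pathway genes, 3 were higher and 9 lower of 12 tested with compound OB, and 11 higher and 5 lower of 16 with compound PD. The pentose phosphate pathway, which branches off after hexokinase, had 6 higher and 1 lower of 7 in each set, and other subunits and regulators of pyruvate dehydrogenase had 2 higher and 6 lower of 8 with OB and 6 higher and 2 lower of 8 with PD. Of 25 further hypoxia targets 12 were higher and 13 lower with OB, a median log2 difference of -0.01, and of 23 tested with PD 15 were higher and 8 lower, with 0.15. Among the regulators of HIF, 7 of 8 were higher with OB and 6 of 8 with PD. Egln3, a prolyl hydroxylase that marks HIF for degradation, was at 3.47, 8.12 and 12.4 FPKM with DMSO and 14.9, 26.4 and 28.3 with compound OB, the opposite direction from Bnip3 and Ankrd37 in the same libraries. Hif3a, a HIF family member with inhibitory forms, was at 8.16, 8.39 and 9.47 FPKM against 20.1, 28.7 and 21.1. Their adjusted p in limma with compound OB was 1.00 and 0.182, or 0.0538 for each with the block. Egln3 was also higher without overlap in the PD set, as were 13.1% of all genes. It was at 5.04, 4.09 and 3.02 FPKM with DMSO and 9.22, 6.33 and 5.96 with compound PD (limma, adjusted p = 0.358). The Hif3a groups overlapped in that set.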

How the data were processed

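The authors deposited FPKM values per gene for each RNA library, with 2 decimals. The submitters' processing notes name STAR and mm10. Which program computed FPKM, from which annotation and with what use of strand, and the version of STAR, is not given in the sources used here. FPKM carry no counts, and a search for whole-read steps found none beyond chance (8.495% and 9.227% of ratios whole within 0.05, against 10%), so the depth is unknown and precision is the SD over 3 libraries.

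Left out were 380 OB set names split at a hyphen, 27 date-like names per set and 93 repeated PD set entries; of repeated symbols, Aldoa included, the entry of highest mean was kept. Each compound was compared with its DMSO in limma 3.58.1 (R 4.3.3, statmod 1.5.0; trend and robust moderation) on log2(FPKM + 1), which understates changes of low genes, over genes whose mean reached 1 FPKM in the 6 libraries, with two-sided p adjusted by the Benjamini-Hochberg method over all genes and a threshold of 0.05. For the difference between the compounds, genes were kept by their average across all 12 libraries, so a gene could enter while low in 1 set. The limma fit of each compound against its DMSO, without the block, was tested on simulated data. The log2 ratios of 3 isoenzyme pairs used exact permutation tests. Same-numbered OB libraries correlated in their deviations from the group means (0.832, 0.434 and 0.652). This pairing comes from the data and not from the labels. Replicates 2 and 3 also correlated across numbers, with 0.413 for DMSO 2 with compound 3 and 0.327 for DMSO 3 with compound 2. Their pairing is therefore uncertain. Same-numbered PD libraries did not correlate (-0.006 to -0.0285). Alternatives covered pseudocount, filter, scaling, moderation, the block and each library left out.

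All 36 genes are reported; values in every library are given for the isoenzyme pairs and the gene of highest level per step, and further genes were chosen after their values were seen. In each neighbouring list the 2 genes of smallest p were considered. The genes and lists were chosen with earlier results of these data known. Python 3.11.15 with pandas 2.3.3, numpy 2.4.6 and matplotlib 3.10.9 handled tables and figures.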

Additional observations from a re-analysis of the deposited data

Results flagged for a closer look

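Pkm was lower in each compound OB library than in each of its controls and higher in each compound PD library than in each of its own. The PD difference minus the OB difference was 1.55 on the log2 scale (SE 0.25). It did not pass the threshold in limma (adjusted p = 0.0992, and 0.0579 to 0.432 over its alternatives), and compound, dose and set cannot be told apart in it.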

How the results depend on the processing

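Calls are adjusted p under 0.05 in limma, over genes tested; one choice was changed at a time, except that the block was also combined with median-ratio scaling and with leaving out a replicate number, and a fit without replicate 1 of both groups and without a block was chosen after the data were seen. With all libraries, none of the 36 genes was called in either comparison, with another pseudocount, filter, scaling or moderation or with the replicate block alone. None was called in the difference, which was refitted with another pseudocount, median-ratio scaling, the block and each library left out. In the OB set the block moved the calls over all genes from 0 to 7, and to 105 with median-ratio scaling, when 2 of the 36 genes (Hk1 and Pkm) were called. Leaving out libraries gave 0 to 1793 calls over all genes and 0 to 16 of the 36. Without DMSO replicate 1, 14 genes were called, Hk1 the only one of the list; with the block and without replicate 1, 2 or 3 the calls were 1085, 123 and 3, of which 15, 1 (Hk1) and 0 were of the list.

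In the PD set 4 genes were called, 1 without a filter, 2 without moderation by trend and robust fit, and 0 with block and median-ratio scaling. The PD libraries share only a number, and the replicate block gave 42 calls, none of the list; no library correlated with its own number above 0.1. Leaving out libraries gave 1 to 258 calls over all genes and 0 to 2 of the 36: Slc16a3 without DMSO replicate 1 (160 calls), Slc2a1 with the block and without replicate 2 or 3 (82 and 84), and Bpgm, with Pkm in the fit without the block, without replicate 1 of both groups (133 with the block and 258 without it). For the difference, a pseudocount of 0.1 gave 3 calls over all genes and leaving out libraries 0 to 15, none of the list. With the block, the exact p of the log2 ratios was 0.25 to 1, and 0.25 is the smallest it can give.

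Of 1774 values of single genes under the alternatives, 108 had the opposite sign, 18 of them for a gene that differed by more than 1 SE or was called. These were PD log2 differences: Pfkl (-0.051 to 0.50 with single libraries left out), P4ha2 (-0.073 to 0.77) and, without replicate 1 of both groups (with the block or without it), Aldoa -0.0069, Ldha -0.053, Ldhb -0.11, P4ha2 -0.067, Pfkl -0.076, Pgk1 -0.046, Tpi1 -0.049 and Bpgm 0.75. The Ldha/Ldhb log2 ratio of the OB set was 0.16 with a pseudocount of 0.1, 0.27 with none and -0.52 to 0.0087 with single libraries left out, Ldhb being under 1 FPKM. The cause of these changes was not tested. Without counts, no limit from depth can be given for the low genes Ldhb, Eno2, Hk3 and Ankrd37.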
